A study of Mus musculus with 6 samples.

Results

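Levels of 10 genes of the ADAMTS family, secreted metalloproteases of the extracellular matrix, were examined in RPE/choroid, the retinal pigment epithelium with the vascular layer behind it. Adamts1 had the highest level of the 10 and Adamts14 the lowest. Adamts1, Adamts10 and Adamts2 together held 77.6% of the summed level per kilobase of transcript, and 69.3% without correction for length. The genes are Adamts1, Adamts2, Adamts3, Adamts4, Adamts5, Adamts9, Adamts10, Adamts12, Adamts14 and Adamts16. They are 10 of the 33924 genes of the deposited table, found by their symbols, and all 10 had a level above 0. The family was selected on a measured value, an age difference that the authors' own comparison gave for 1 of these genes. The columns of that comparison are not used here, so the value behind the choice is not given and young and aged mice are not compared.

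The libraries came from C57BL/6J mice without any transgene or treatment, 3 young and 3 aged, with a pair of eyes per library. By the labels the young mice were 1 to 2 months old, while the methods of the study give a slightly higher range. The aged mice were 20 to 24 months old in the sample titles and 22 to 24 months old in the time label. All mice are labelled male, although the methods name both sexes. Total RNA was sequenced after removal of ribosomal RNA and without selection for poly(A) tails. For each gene 1 deposited value was used, the authors' mean of normalized counts over the 6 libraries. It pools young and aged mice, so whether the order and shares hold within each age group is unknown here. The table has no value per library, so depth per library, spread between mice and an error for each level are unknown here, and no difference between genes could be set against replicate error. In bulk tissue, fewer cells of a type and less RNA per cell cannot be told apart.

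ADAMTS proteins are made as inactive precursors, lose their prodomain to furin-like convertases and act outside the cell, where a zinc ion in the catalytic site cuts the substrate. Behind the catalytic domain they carry thrombospondin type 1 repeats, which bind matrix and set them apart from the membrane-anchored ADAM proteases. By substrate, Adamts1, Adamts4, Adamts5 and Adamts9 are known for cutting the large hyaluronan-binding proteoglycans aggrecan and versican, and Adamts2, Adamts3 and Adamts14 for removing the amino-terminal propeptide of fibrillar procollagens. Adamts10 is tied to fibrillin microfibrils, Adamts12 to the cartilage protein COMP, and Adamts16 is the closest relative of Adamts18. TIMP3, an inhibitor of several ADAMTS proteases, is a resident of Bruch's membrane, the matrix sheet between RPE and choroid.

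The zinc-binding site is what all 10 genes share by sequence. It spans 11 residues, and its coding bases are shown because they mark each gene as a protease. The sequences were read from GENCODE M21 transcripts (GRCm38), 5′ to 3′, with the codons of the 3 zinc-binding histidines and of the catalytic glutamate in capitals. Each range runs over the intron that interrupts the site.
Adamts1, chr16:85799191-85799545, minus strand, exons 3 and 4: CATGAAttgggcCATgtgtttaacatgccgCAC
Adamts2, chr11:50775403-50776134, plus strand, exons 7 and 8: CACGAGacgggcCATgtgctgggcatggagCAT
Adamts3, chr5:89707433-89707818, minus strand, exons 8 and 9: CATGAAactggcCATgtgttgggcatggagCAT
Adamts4, chr1:171253210-171253915, plus strand, exons 3 and 4: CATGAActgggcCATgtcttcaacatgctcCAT
Adamts5, chr16:85878015-85887826, minus strand, exons 2 and 3: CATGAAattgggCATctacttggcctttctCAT
Adamts9, chr6:92905285-92908493, minus strand, exons 8 and 9: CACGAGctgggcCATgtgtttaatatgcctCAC
Adamts10, chr17:33538157-33538279, plus strand, exons 9 and 10: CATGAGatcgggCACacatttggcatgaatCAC
Adamts12, chr15:11241529-11255564, plus strand, exons 7 and 8: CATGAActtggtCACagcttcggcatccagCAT
Adamts14, chr10:61225465-61227123, minus strand, exons 7 and 8: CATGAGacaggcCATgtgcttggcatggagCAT
Adamts16, chr13:70787149-70791812, minus strand, exons 8 and 9: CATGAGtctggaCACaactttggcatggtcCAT
In all 10 genes an exon junction fell inside these 33 bases. It followed base 10 in Adamts1, Adamts4 and Adamts5 and base 17 in the other genes. The strict form of the pattern, with glycine in the eighth place, matched in 7 genes. Adamts1, Adamts4 and Adamts9 matched only when any residue was allowed in that place, a form that was tried after the strict one had missed them. The sites of Adamts2 and Adamts14 matched at 30 of 33 bases, and that of Adamts3 matched both of these at 29. Those of Adamts1 and Adamts9 matched at 28 bases. Likeness of the site did not follow substrate throughout, since Adamts5 matched Adamts1, Adamts4 and Adamts9 at 20, 19 and 18 bases, fewer than the 22 at which it matched Adamts3, Adamts10 and Adamts14. Adamts9 and Adamts16 were among the least alike, with 17 matching bases.

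Levels are given first as deposited, in mean normalized counts, and then per kilobase of the longest annotated transcript, since a long transcript yields more fragments. Genes are compared per kilobase unless another scale is named. The study's methods describe abundances in TPM that were turned into counts, and do not state whether the deposited values still scale with transcript length. If length had already been divided out, the per-kilobase values correct for it a second time, and the deposited levels would be the scale on which to compare genes. Across 13828 protein-coding genes at a level of 10 or more, Spearman's rho between deposited level and transcript length was 0.30, a description across genes that share the same libraries, and both scales are therefore shown. On the per-kilobase scale the 10 genes ran from 5.55 to 607, with a median of 65.6, against a median of 103 for the 16445 protein-coding genes above 0. Of the 10 genes, 4 lay above that median. As deposited the direction turned, with a median of 557 for the 10 genes against 333 for the protein-coding genes, and 5 of the 10 above it.

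**Figure D1:**
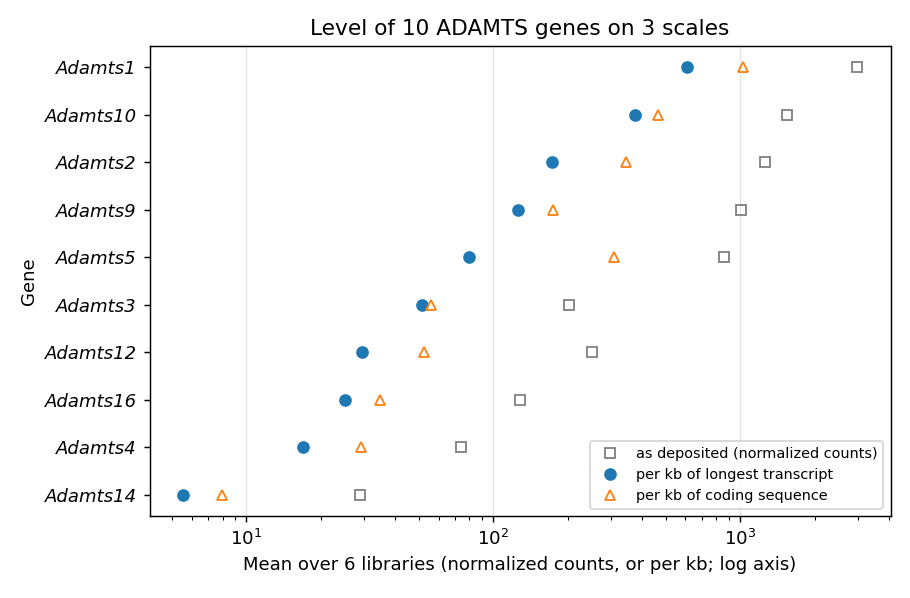
Level of each of the 10 ADAMTS genes as the authors' mean over 6 libraries, on a log axis, as deposited (squares), per kb of longest transcript (circles) and per kb of coding sequence (triangles). Adamts1 is highest and Adamts14 lowest on all 3 scales. Of these 3 scales, Adamts5 stands above Adamts9 only per kb of coding sequence. Error bars are lacking since only a pooled mean is given.

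Adamts1, which cuts versican and aggrecan, was the most abundant of the proteoglycan-cutting members and of the whole set. It lies on chromosome 16 at 85793827 to 85803113 (GRCm38), on the minus strand. Its level was 2965 mean normalized counts, or 607 per kilobase, above 89.3% of protein-coding genes on that scale. The next gene in order, Adamts10, was 1.62-fold lower per kilobase, 1.92-fold lower as deposited and 2.99-fold lower per kilobase of merged exons.

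Adamts9, the mammalian relative of the worm gene gon-1 and also a versican protease, is on chromosome 6 at 92772699 to 92943492. It had 1009 mean normalized counts and 126 per kilobase. Adamts5, the chief aggrecan-cutting enzyme of mouse cartilage, had 863 mean normalized counts and 80.0 per kilobase. The order of Adamts9 and Adamts5 depends on the length used. Per kilobase of coding sequence Adamts5 had 309 and Adamts9 had 174, since only 25.9% of the 10791 bases of the Adamts5 transcript are coding. Per kilobase of merged exons Adamts5 was higher as well, with 80.0 against 67.0.

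Adamts5 lies on chromosome 16 at 85856173 to 85901828, next to Adamts1 on the same strand. The genes are 53059 bases apart, with 1 annotated gene and 0 protein-coding genes between them. Per kilobase of the longest transcript Adamts1 was 7.59-fold higher than this neighbour. The ratio was 3.44 as deposited, 3.30 per kilobase of coding sequence and 14.0 per kilobase of mean transcript length, so that its direction held and its size did not. No other pair among the 19 ADAMTS genes that includes one of the 10 was that close, the next gap being 33446023 bases, between Adamts16 and Adamts6 on chromosome 13.

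Adamts4, the other classical aggrecan-cutting enzyme, was far lower. It had 74.1 mean normalized counts and 16.9 per kilobase, 4.74-fold below Adamts5. The gap was 11.6-fold as deposited and 10.6-fold per kilobase of coding sequence. It lies on chromosome 1 at 171250421 to 171260637, on the plus strand. Adamts1, Adamts4, Adamts5 and Adamts9 together held 55.7% of the summed level per kilobase of the 10 genes.

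The procollagen N-proteinases differed widely in level. Adamts2, on chromosome 11 at 50602084 to 50807573, removes the propeptide of type I procollagen and is the gene lost in dermatosparaxis, a disease of fragile skin. With 1258 mean normalized counts and 173 per kilobase it was the third of the 10 genes. Adamts3, on chromosome 5 at 89677087 to 89883334, processes procollagens and, with the cofactor Ccbe1, activates the lymphatic growth factor Vegfc.

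Adamts3 had 202 mean normalized counts and 51.2 per kilobase, so that Adamts2 was 3.38-fold higher. As deposited the ratio was 6.23, and per kilobase of coding sequence it was 6.19, as the Adamts3 transcript is 91.7% coding and that of Adamts2 is 50.1% coding. Adamts14, on chromosome 10 at 61197112 to 61273438, was the lowest of the 10 genes. It had 28.8 mean normalized counts and 5.55 per kilobase, 31.2-fold below Adamts2 (24.3-fold to 78.8-fold over the lengths used). These genes, whose zinc sites are the most alike of the set, thus ran from the third to the last place by level. Together they held 15.4% of the summed level per kilobase.

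Adamts10, on chromosome 17 at 33524204 to 33553782, was second in order. In humans, loss of this gene causes Weill-Marchesani syndrome, with short stature and a small, displaced lens. Its level was 1544 mean normalized counts and 375 per kilobase. That was above 81.0% of protein-coding genes, and 25.2% of the sum over the 10 genes. GENCODE lists 15 transcripts for Adamts10, more than for any other of the 10, and merging all its exons lowered its value to 187 per kilobase without changing its place. Adamts6, its closest relative, was 7.97-fold lower per kilobase and 4.27-fold lower as deposited. Adamts17, another Weill-Marchesani gene, was 16.0-fold lower per kilobase and 10.3-fold lower as deposited.

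Adamts12, on chromosome 15 at 11064790 to 11349231, had 251 mean normalized counts and 29.3 per kilobase. Its closest relative Adamts7, which also cuts COMP, had 16.3 per kilobase. Adamts12 has the longest span of the 10 genes, 284442 bases of genome, and a long transcript of 8579 bases. As deposited it stood above Adamts3, and below it once length was taken into account.

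Adamts16, on chromosome 13 at 70727802 to 70841811, was a low member. It had 128 mean normalized counts and 25.1 per kilobase, above 29.1% of protein-coding genes above 0 per kilobase, and as deposited above 44.0% of protein-coding genes with those at 0 included. The level was 5.46-fold above that of its closest relative Adamts18, and 24.2-fold below that of Adamts1. In the order of the 10 genes Adamts16 stood eighth on each scale. Per kilobase it lay between Adamts12 and Adamts4, with Adamts12 higher by a ratio of 1.17. As deposited it lay between Adamts3 and Adamts4, and the ratio of Adamts12 to it was 1.97. Whether these levels differ beyond the spread between mice cannot be read from a pooled mean.

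Little of the sequence of the 10 genes is shared with other genes. Of the distinct stretches of 31 bases in each gene's transcripts, at least 98.2% (Adamts2) occurred in no other gene's annotated transcripts, and for Adamts1, Adamts3 and Adamts5 all of them were of this kind. Exons of Adamts9 overlap A730049H05Rik and Gm15737 on the opposite strand, which stood at 35.2 and 55.7 mean normalized counts. Adamts4 has an exon overlap with 1 other gene, which is not reported here. The libraries were made with a stranded kit, but whether strand entered the counting is not given in the sources used here.

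**Figure D2:**
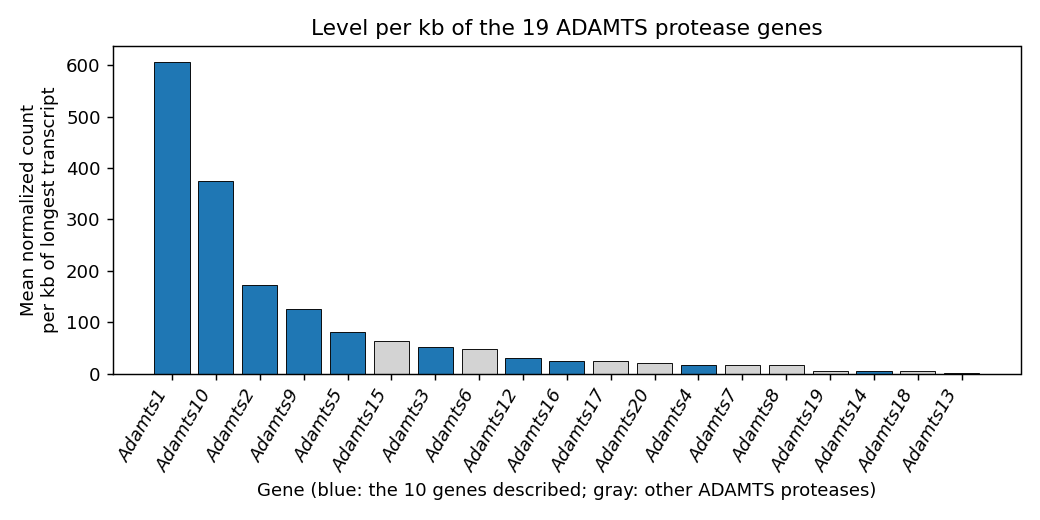
Bars show the authors' mean normalized count per kb of longest transcript for all 19 ADAMTS protease genes, with the 10 described here in blue and the other 9 in gray. The bars start at 0; the first 5 are all blue, and the highest gray bar, Adamts15, stands at 62.6.

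Within the whole family of 19 protease genes, the 10 held 88.3% of the summed level per kilobase. Among the other 9 genes, 8 had a level of at least 10 mean normalized counts. The highest of them were Adamts15, a versican protease, with 62.6 per kilobase, and Adamts6 with 47.0. Adamts13, the liver-made enzyme that trims von Willebrand factor in blood, was the lowest at 2.19 mean normalized counts and 0.487 per kilobase. Adamts9 was 5.96-fold higher than Adamts20, its closest relative. Of the 10 genes, 5 (Adamts3, Adamts12, Adamts16, Adamts4 and Adamts14) lay within the range of these other 9.

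**Figure D3:**
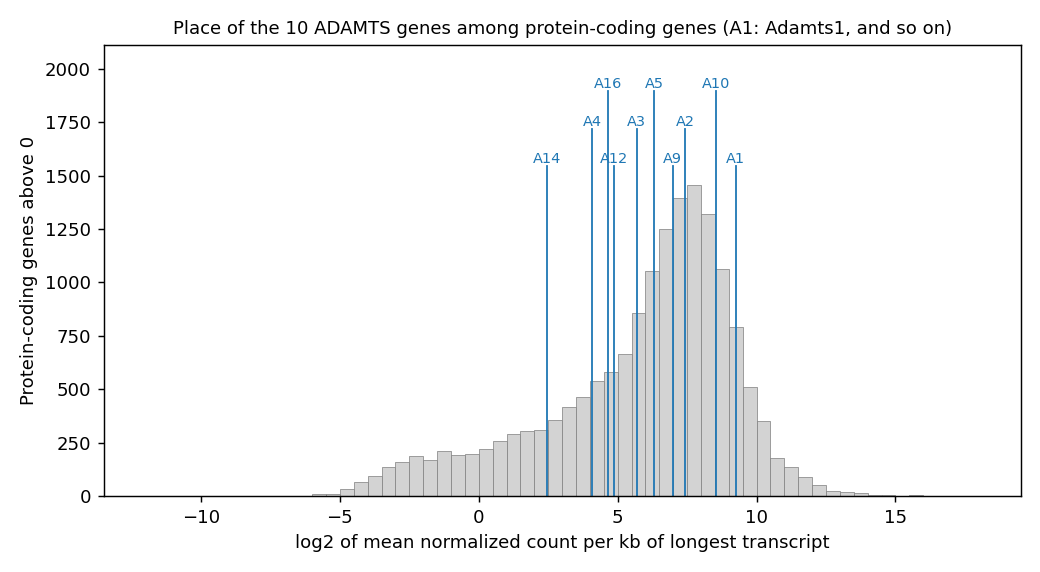
The gray histogram counts the protein-coding genes with a level above 0 by the log2 of their mean normalized count per kb of longest transcript. Blue lines mark the 10 ADAMTS genes; Adamts1, Adamts10, Adamts2 and Adamts9 lie above the median of 103 per kb.

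ADAMTS-like proteins share the repeats of the family but lack the protease domain. Of the 7 genes listed all were present, from 59.3 per kilobase for Adamtsl2 to 389 for Adamtsl3, which was 1.04-fold above Adamts10 per kilobase and 1.83-fold above it as deposited. Adamtsl4, whose loss in humans displaces the lens, had 225 per kilobase. The lowest of them was therefore above 5 of the 10 proteases, namely Adamts3, Adamts12, Adamts16, Adamts4 and Adamts14.

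Substrates spanned a far wider range than the 10 proteases described here. Among the hyaluronan-binding proteoglycans, Bcan (brevican) had 90.4 per kilobase, Vcan (versican) 81.7, Acan (aggrecan) 9.78 and Ncan (neurocan) 3.31. The order of brevican and versican depends on the scale, as versican was 3.58-fold higher as deposited. Versican was 8.35-fold above aggrecan per kilobase and 14.1-fold above it as deposited. Its ratio to Adamts5 was 1.02 per kilobase of the longest transcript but 0.326 per kilobase of coding sequence and 3.27 per kilobase of mean transcript length, so that the order of these genes depends on the length. Among procollagens, Col1a2 had 12072 per kilobase, Col1a1 7732 and Col3a1 6392, so that Col1a1 was 44.7-fold above Adamts2. Col5a1 followed with 524, and the cartilage collagen Col2a1 had 24.4. The microfibril genes Fbn1, Ltbp1 and Fbn2 had 876, 327 and 198 per kilobase, and Fbn1 was 2.34-fold above Adamts10 per kilobase and 6.79-fold above it as deposited.

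Inhibitors were led by Timp3, with 41188 mean normalized counts and 8723 per kilobase, 5.17-fold above the sum of all 19 protease genes. The ratio was 4.31 as deposited, 3.96 per kilobase of merged exons and 22.8 per kilobase of coding sequence. Only 633 of the 4722 bases of the Timp3 transcript are coding. Timp2 had 2161 per kilobase, Timp1 215 and Timp4 20.7. Lrp1, the endocytic receptor that clears Adamts4 and Adamts5, had 2466 per kilobase. Of the convertases that remove prodomains, Pcsk6 had 187 per kilobase, Furin 181 and Pcsk5 39.0, and as deposited Furin was 1.26-fold above Pcsk6. The enzymes that place the fucose-glucose sugar on thrombospondin repeats, needed for secretion of many ADAMTS proteins, had 155 (Pofut2) and 218 (B3glct, listed under its older symbol B3galtl) per kilobase. In the Vegfc pathway, Vegfc had 121, its receptor gene Flt4 99.0 and Ccbe1 36.9 per kilobase, beside 51.2 for Adamts3. The order of Vegfc and Flt4 and of Pofut2 and B3glct also turned as deposited. There Flt4 was 2.10-fold above Vegfc, but Pofut2 only 1.09-fold above B3glct. Fbn2 and Ltbp1 were nearly equal as deposited, with 2187 and 2184 mean normalized counts. How these partners vary with any ADAMTS gene cannot be read from 1 mean per gene.

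**Figure D4:**
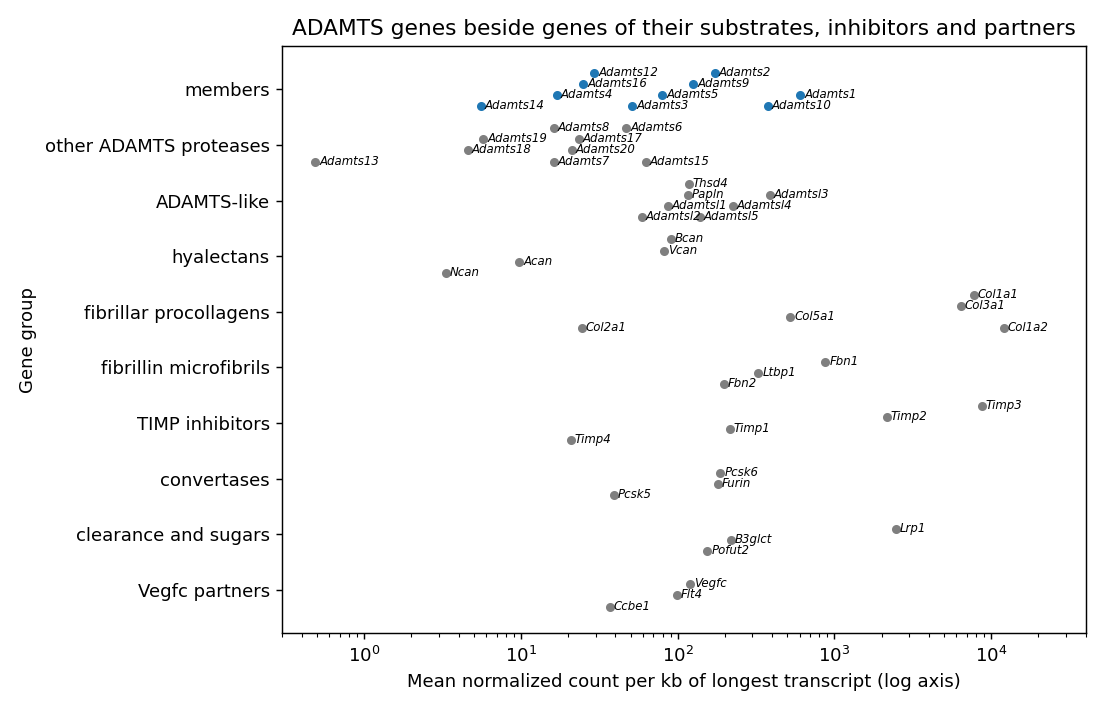
Each point is a gene at the authors' mean normalized count per kb of longest transcript (log axis), in rows by gene group with the 10 ADAMTS genes in blue. Timp3, Col1a1, Col1a2 and Col3a1 lie at 6392 per kb or more, an order of magnitude above Adamts1 at 607, whereas Vcan, Bcan and Vegfc lie inside the range of the proteases.

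The tissue label was checked against defining markers. Of 6 RPE markers, 5 were abundant, from 4712 per kilobase for Lrat to 83745 for Ttr, and Best1 had 33.6. Pigment cell genes listed as melanocyte markers (Dct, Mlana, Pmel and Tyrp1), which RPE cells also express, ran from 8651 to 27072 per kilobase and do not tell the 2 cell types apart. Markers of fibroblasts ran from 800.5 to 9256. Pericyte and smooth muscle markers lay between 480.3 and 5211, endothelial ones between 257 and 1077, and those of macrophages between 173 and 995. Markers of tissue that the dissection was meant to remove were high too, with rod photoreceptor genes at 1587 to 10429 per kilobase and skeletal muscle genes at 1500 to 12062. Which of these cells the ADAMTS transcripts came from was not tested.

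Promoters were compared for 6 of the 10 genes, with sequences from RefSeq (GRCm38.p6) over 300 bases that run from 250 before to 50 after the start site. Those of the most and the least abundant gene are shown, 250 bases up to the start site, as the ends of the range of levels. Capitals mark TATAAA and GGGCGG on either strand, which on the opposite strand read TTTATA and CCGCCC.
Adamts1, chr16:85803114-85803363, minus strand: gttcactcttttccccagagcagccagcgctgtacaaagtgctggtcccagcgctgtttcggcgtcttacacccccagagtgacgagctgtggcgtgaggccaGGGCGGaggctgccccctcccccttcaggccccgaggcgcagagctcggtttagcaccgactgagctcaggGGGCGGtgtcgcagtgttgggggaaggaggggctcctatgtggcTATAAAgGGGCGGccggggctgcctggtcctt
Adamts14, chr10:61273420-61273669, minus strand: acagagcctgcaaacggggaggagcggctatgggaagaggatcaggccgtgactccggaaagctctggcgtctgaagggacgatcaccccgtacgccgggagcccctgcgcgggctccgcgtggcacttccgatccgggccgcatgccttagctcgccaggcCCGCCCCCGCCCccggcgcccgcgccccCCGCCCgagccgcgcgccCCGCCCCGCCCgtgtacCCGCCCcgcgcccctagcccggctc
The Adamts1 promoter held TATAAA 32 bases before the start, a sequence found in 13.6% of all 32851 promoters, and the other 5 did not. GGGCGG, the core of the site that Sp1 binds, was in 5 of the 6 promoters, all but that of Adamts12, and in 35.7% of all promoters. CCAAT and CACGTG, in 37.4% and 7.15% of promoters, were in 0 of the 6. The dinucleotide CG occurred 44 times in the window of Adamts14, 41 times in those of Adamts2 and Adamts3, 25 times in that of Adamts9, 18 times in that of Adamts1 and 7 times in that of Adamts12, against a median of 7. Its number did not follow the order of levels, as Adamts2 and Adamts3 shared the same number at 173 and 51.2 per kilobase and Adamts14 had the most.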

How the data were processed

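RPE/choroid libraries of 3 young and 3 aged mice were summarised in 1 deposited table. The authors used BBDuk for trimming, STAR for alignment to GRCm38 transcripts of Ensembl release 82, Sailfish for abundances, total-count scaling and DESeq2. The deposited mean signal is the authors' mean of normalized counts over all 6 libraries. The remaining columns hold the authors' comparison of young and aged (fold change, its error, Wald statistic, p-values) and were not used. The table held 0 columns that name a sample, so no test was run and depth per library is unknown here.

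Symbols were matched to GENCODE M21 (28512 of 33924 genes). Levels were divided by the length of the longest transcript, and all percentiles on that scale are over protein-coding genes above 0. Percentiles, shares, stretches of 31 bases and motifs were computed with Python 3.11.15, pandas 2.3.3 and Biopython 1.88. The percentile, the share and the search for the zinc-binding site were tested on made values with known answers. The protein table planned for was not used here, and 1 result on overlapping genes is not reported here. Members and lists were chosen with earlier results of these data known. Genes named are the 10 members, the rest of the family, and fixed lists of relatives, substrates, inhibitors, activators and markers.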

Additional observations from a re-analysis of the deposited data

How the results depend on the processing

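No paired analysis was possible because each gene has only 1 mean over the 6 libraries. The age comparison, the fits without 1 replicate and the pseudocount were therefore not run. Of the 10 genes, 8 kept their place in the order without length correction, where Adamts12 and Adamts3 changed places, and 8 kept it per kilobase of coding sequence, where Adamts5 and Adamts9 did. Merged exons also left 8 places, as Adamts5 and Adamts9 changed places there too. The mean transcript length left all 10. Both of these lengths were added once the data were known. The median percentile of the 10 deposited levels was 70.8 among all genes above 0, 77.1 with genes at 0 included, 63.7 among protein-coding genes and 56.7 among genes at 10 or more, as the set of genes ranked changes. Adamts1 held 36.0% of the family's summed level per kilobase, 40.8% over the 10 members alone and 31.03% of the deposited levels. The share of Adamts1, Adamts10 and Adamts2 together in the 10 was 77.6% per kilobase and 69.3% as deposited. It was 73.4% per kilobase of coding sequence and 80.8% per kilobase of mean transcript length. Ratios between genes were compared across lengths once the data were known. With merged exons the share of Adamts10 in the sum of the 10 genes fell from 25.2% to 16.6%. Depth per library is unknown here, and the levels carry no error.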
